A study of Homo sapiens with 6 samples.

Results

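Coagulation and complement factors were followed in HepG2, a human hepatoblastoma cell line that keeps many hepatocyte functions. The set comprised 37 genes of 19775 on the array. They were taken by gene symbol from the clotting and complement proteins that liver makes, and each gene was read from the probe set whose mean over the 6 arrays was highest. Coagulation supplied 20 genes, in which the fibrinolytic and contact-system factors were included, and complement supplied 17. SERPING1, the C1 inhibitor, acts in both systems and was counted with coagulation.

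Cells had been transfected with an siRNA against HNF4A (siHNF4a) or with a control siRNA (siControl), and TGF-beta at 3 ng/ml was then given for 0, 1.5 or 24 h. HNF4A is a nuclear receptor that drives many liver genes, and TGF-beta is a cytokine that signals through Smad proteins. The arrays were siHNF4a at 0, 1.5 and 24 h and siControl at 0, 1.5 and 24 h, with 1 array each and no replicates. All 6 came from transfected cells of 1 line, no untransfected cells were measured, and no array of untreated cells at 1.5 or 24 h was used here, so TGF-beta and time in culture cannot be told apart. The labels give 1 siRNA name per arm, so effects of an siRNA on other transcripts than its target cannot be told apart from effects of HNF4A.

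Clotting runs as a cascade of serine proteases. Tissue factor with F7 activates F9 and F10, F10 with its cofactor F5 converts prothrombin (F2) to thrombin, and thrombin makes fibrin, which F13 cross-links. Antithrombin (SERPINC1), heparin cofactor II (SERPIND1), TFPI and the protein C system (PROC, PROS1) hold the cascade back, and plasmin, made from PLG, dissolves the clot. Complement is another plasma protease cascade, in which the classical route (C1R, C1S), the lectin route (MBL2, MASP1, MASP2) and the alternative route (CFB) converge on C3 and C5, and C6 to C9 then form the membrane pore. Hepatocytes make most of these proteins, and HNF4A binding sites are known in the promoters of several clotting genes.

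Values are MAS5 signals, linear intensities scaled by the authors. A signal below 12.9, the median of all signals, was set to that floor. Genes whose mean signal exceeded the floor were tested, which left 30 of the 37 members, 16 of coagulation and 14 of complement, among 11921 genes. Differences are log2 values, given with the standard error from limma (SE, after ±), and a gene was called at an adjusted p below 0.05 over all genes tested. No group had a replicate. The residual of a gene was how far its siRNA difference disagreed between times, or a time difference between siRNAs, with 2 degrees of freedom. limma drew the variance of a gene toward that of genes of similar signal, with 12.6 prior degrees of freedom. The SE and p-values thus rest largely on other genes and not on replicates, and the number of arrays limits the precision. In bulk RNA, fewer cells of a type and less RNA per cell cannot be told apart. Signals of different genes come from different probes and were not set against each other.

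The arrays had a median signal of 12.4 to 13.3, and 49.1% to 50.7% of probe sets lay above the floor. The 7 hepatocyte markers (ALB, TTR, APOA1, APOB, TF, SERPINA1 and AFP) were above the floor on every array, with summed signals of 45733.6, 48056.6 and 51021.9 in siHNF4a cells at 0, 1.5 and 24 h, against 43308.5, 47161.5 and 46234.7 in siControl cells. Of 3 blood markers 0 to 2 were above the floor, with summed signals of 18.7 to 55.8 over the arrays, and PTPRC was at or below it throughout. Fibroblast and stellate markers summed to 33.4 to 73.9, with 1 or 2 of 3 above the floor. Among 3 endothelial markers CDH5 and TEK stayed at or below the floor, while PECAM1 lay above it. The siControl 0 h array stood apart in 1 control probe set for human ribosomal RNA sequence, with 8599.7 against 69.8 to 736.5 on the other arrays. For the called differences of members, values without that array are given as well. Called differences of markers and other pathway genes have none, nor have differences between single arrays that use it.

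Promoter sequence played no part in the choice of the members. RefSeq promoter windows of GRCh38.p14, from 250 bases before to 50 after a start site, were matched for 31 of the 37 members by symbol. On either strand, the HNF4 motif CAAAGTCCA was present for 2 of 31 members (6.45%), F10 and PROZ, and in 0.472% of all 27305 genes in the table. Within the 250 bases before the start it was present for 1 member. The looser CAAAGNNCA, which also takes every CAAAGTCCA, was found for 6 members (19.4%), against 6.44% of all genes. The C/EBP motif TTGCNNAA matched 7 members (22.6%) and 12.7% of all genes, and the AP-1 motif TGANTCA matched 0 of 31 members and 9.37% of all genes. A match is a run of letters and not a measured binding site, and a window without a match says only that these letters are not in it.
The windows printed here run from 120 bases before to 10 after the start site. F7, F10 and PROZ are shown because they lie on chromosome 13 with 0 protein-coding genes between F7 and F10 and 1 between F10 and PROZ. SERPIND1 is given as the only called member with a CAAAGNNCA match. The called members F7, TFPI, C4BPB, MASP2 and C5 had no such match in their windows, and SERPINC1 and C3 had no window. Capitals mark CAAAGNNCA on either strand, and the F7 window holds no match.
F7, chr13:113105671-113105800, plus strand: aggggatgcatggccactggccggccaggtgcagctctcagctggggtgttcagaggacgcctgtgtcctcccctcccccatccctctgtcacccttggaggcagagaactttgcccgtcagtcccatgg
F10, chr13:113122679-113122808, plus strand: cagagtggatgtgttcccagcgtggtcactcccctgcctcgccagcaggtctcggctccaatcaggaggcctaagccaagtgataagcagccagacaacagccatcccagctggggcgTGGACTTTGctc
PROZ, chr13:113158528-113158657, plus strand: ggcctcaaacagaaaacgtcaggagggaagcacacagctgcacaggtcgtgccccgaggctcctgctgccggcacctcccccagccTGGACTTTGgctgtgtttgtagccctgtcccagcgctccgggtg
SERPIND1, chr22:20773993-20774122, plus strand: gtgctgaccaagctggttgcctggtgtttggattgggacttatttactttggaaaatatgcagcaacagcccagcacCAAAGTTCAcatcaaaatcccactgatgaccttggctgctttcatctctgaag

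The siRNA comparison asks which factors differ when HNF4A is targeted. Among the coagulation members F7, SERPINC1 and SERPIND1 fell in siHNF4a cells, none rose, and 13 of 16 were not called. The share that fell was 18.8%, against a background of 4.16% of all genes that fell. Members and the other gene lists were chosen with earlier results of these data known, so such shares are descriptions. The median difference was -0.23, against -0.04 over all genes tested. A negative sign was found for 10 of the 16 members, against 6685 of all 11921 genes. Without the siControl 0 h array 2 coagulation members were called in place of 3, with SERPINC1 at -1.13 and SERPIND1 at -0.49. Of the 7 hepatocyte markers TTR fell, by 0.52 (SE 0.12, adjusted p = 0.011), the other 6 were not called, and the part of such a shift in the members' values was not tested. SERPINC1 encodes the main inhibitor of thrombin and F10, SERPIND1 a further thrombin inhibitor, and F7 the protease that starts clotting with tissue factor, and the called genes thus act on both sides of the cascade.

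**Figure D1:**
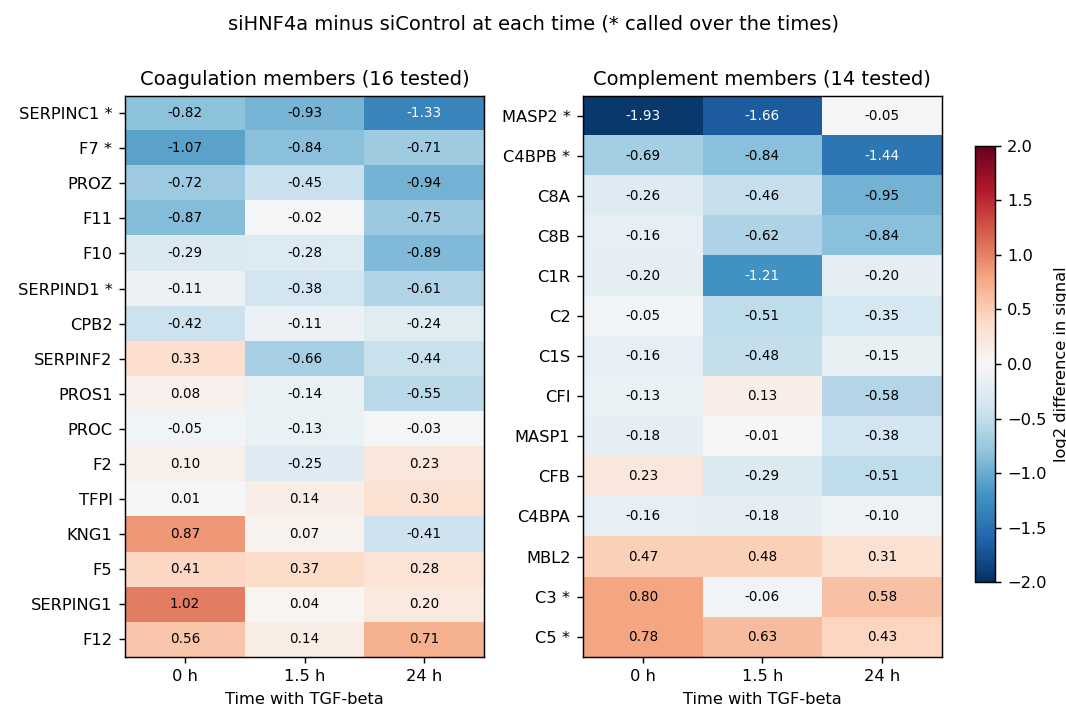
Log2 difference in signal, siHNF4a minus siControl, for each tested member (rows) at 0, 1.5 and 24 h with TGF-beta (columns), with coagulation and complement apart, 1 array on each side and called members marked with an asterisk. SERPINC1 read -0.82, -0.93 and -1.33 and C4BPB -0.69, -0.84 and -1.44 at the 3 times, whereas C5 read 0.78, 0.63 and 0.43.

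Antithrombin had the largest siRNA difference of the coagulation genes. SERPINC1 had signals of 296, 284 and 138 in siHNF4a cells at 0, 1.5 and 24 h, against 522, 539.7 and 345 in siControl cells. All 3 siHNF4a signals lay below all 3 siControl signals, at 0.568, 0.526 and 0.399 of the siControl signal of the same time. The difference was -1.02 ± 0.14 (SE, adjusted p = 0.00035). Heparin cofactor II, which blocks thrombin with heparin or dermatan sulfate, had signals of 1479.6, 1178 and 1099.7 for SERPIND1 in siHNF4a cells, against 1597, 1535 and 1676 in siControl cells. The groups did not overlap, and the siHNF4a to siControl ratios were 0.926, 0.768 and 0.656 in order of time. SERPIND1 fell by 0.37 (SE 0.11, adjusted p = 0.047), and the call was lost without the 24 h arrays (-0.25, adjusted p = 0.43) or without the 1.5 h arrays (-0.36, adjusted p = 0.14).

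Inhibitors beside these were not called. TFPI, which blocks the F7 and tissue factor complex, had a difference of 0.15 ± 0.09 (adjusted p = 0.37), with overlapping groups. With probe sets of the _x_at and _s_at kinds left out TFPI was read from another probe set and was called at 0.41 (adjusted p = 0.018). PROZ, a cofactor that helps a serpin inhibit F10, read 28.2, 36.2 and 26.9 in siHNF4a cells, against 46.5, 49.3 and 51.7 in siControl cells. Its groups did not overlap, yet the difference of -0.70 ± 0.24 missed the threshold (adjusted p = 0.087). In the protein C system, which inactivates F5 and F8, PROC read 235, 273 and 275 in siHNF4a cells, against 243, 299 and 281 in siControl cells, a difference of -0.07 ± 0.13 (adjusted p = 0.83). Its cofactor PROS1 read 663, 616 and 683 in siHNF4a cells, against 627, 677 and 997 in siControl cells, a difference of -0.20 ± 0.13 (adjusted p = 0.39). The groups overlapped for both, and the siControl 24 h signal of PROS1 stood above the other 5.

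Of the procoagulant proteases F7 alone was called. Its signals were 58.9, 65.6 and 58.9 in siHNF4a cells, against 124, 118 and 96.5 in siControl cells. The groups did not overlap, and the siHNF4a signal was 0.477, 0.558 and 0.61 of siControl at 0, 1.5 and 24 h. F7 fell by 0.87 (SE 0.19, adjusted p = 0.01). Without the siControl 0 h array the difference was -0.78 (adjusted p = 0.068), and without the 24 h arrays it was -0.95 (adjusted p = 0.088). The other F7 probe set lay below the floor on all arrays, so its difference was 0. The mean over both probe sets, -0.44 (adjusted p = 0.13), is thus smaller in size by construction and says nothing further about F7.

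Prothrombin and F5 were not called, and their signs were opposite to that of F7. F2 read 882, 811 and 1105 in siHNF4a cells, against 824, 965 and 940.2 in siControl cells, a difference of 0.03 ± 0.11 (adjusted p = 0.93) with overlapping groups. F5, the cofactor of F10, read 621, 676 and 716 in siHNF4a cells, against 468, 523 and 591 in siControl cells. All 3 of its siHNF4a signals were the higher, and the difference of 0.35 ± 0.11 was not called (adjusted p = 0.064). The other F5 probe sets above the floor gave siRNA differences of 0.63 and 0.08. F5 was the only tested coagulation member whose 3 siHNF4a signals all exceeded the highest siControl signal. For F7, F11, PROZ, SERPINC1 and SERPIND1 all 3 lay below the lowest siControl signal. Such a separation arose in 7.12% of all genes with siHNF4a above and in 10.3% with siHNF4a below.

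F7 and F10 adjoin on chromosome 13, and their promoter windows are among the sequences shown. F10, which forms thrombin, read 89.6, 124 and 106 in siHNF4a cells, against 109.8, 149.8 and 196 in siControl cells. At each time the siHNF4a signal was the lower, but the groups overlapped, and the difference of -0.49 ± 0.18 was not called (adjusted p = 0.12). F11, which activates F9, read 42.7, 45 and 43.3 in siHNF4a cells, against 78.3, 45.5 and 72.7 in siControl cells. Its groups did not overlap, with a gap between 45 and 45.5, and its difference was -0.55 ± 0.23 (adjusted p = 0.19). F9, the protease lacking in haemophilia B, and F13B, the carrier subunit of factor XIII, had mean signals below the floor and were not tested. F9 read 3, 5.6 and 0.9 in siHNF4a cells, against 9.3, 1.6 and 0.2 in siControl cells. F13B read 1.2, 1.7 and 6.2 in siHNF4a cells, against 10.7, 9 and 10 in siControl cells, all below the floor.

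Contact and fibrinolytic factors held no siRNA call. F12, which starts the contact route, had a difference of 0.47 ± 0.25 (adjusted p = 0.31), the highest of the coagulation members. KNG1, the source of bradykinin, differed by 0.18 ± 0.27 (adjusted p = 0.77), and by 0.56 in its other probe set above the floor. SERPING1 differed by 0.42 ± 0.29 (adjusted p = 0.46), with its siControl 0 h signal of 10.3 set to the floor. KLKB1 (prekallikrein) and PLG (plasminogen) were too dim to test. PLG read 15.6, 5.2 and 9.3 in siHNF4a cells, against 10.2, 14.6 and 11.3 in siControl cells, and KLKB1 was below the floor on all 6 arrays. The plasmin inhibitor SERPINF2 read 208, 152 and 105 in siHNF4a cells, against 166, 240.4 and 143 in siControl cells, with overlapping groups and a difference of -0.26 ± 0.19 (adjusted p = 0.49). CPB2, which protects fibrin from plasmin, read 1835, 2071 and 1665 in siHNF4a cells, against 2458, 2236 and 1959.7 in siControl cells. Each siHNF4a signal was below that of its time, the groups overlapped, and the difference was -0.26 ± 0.09 (adjusted p = 0.11).

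**Figure D2:**
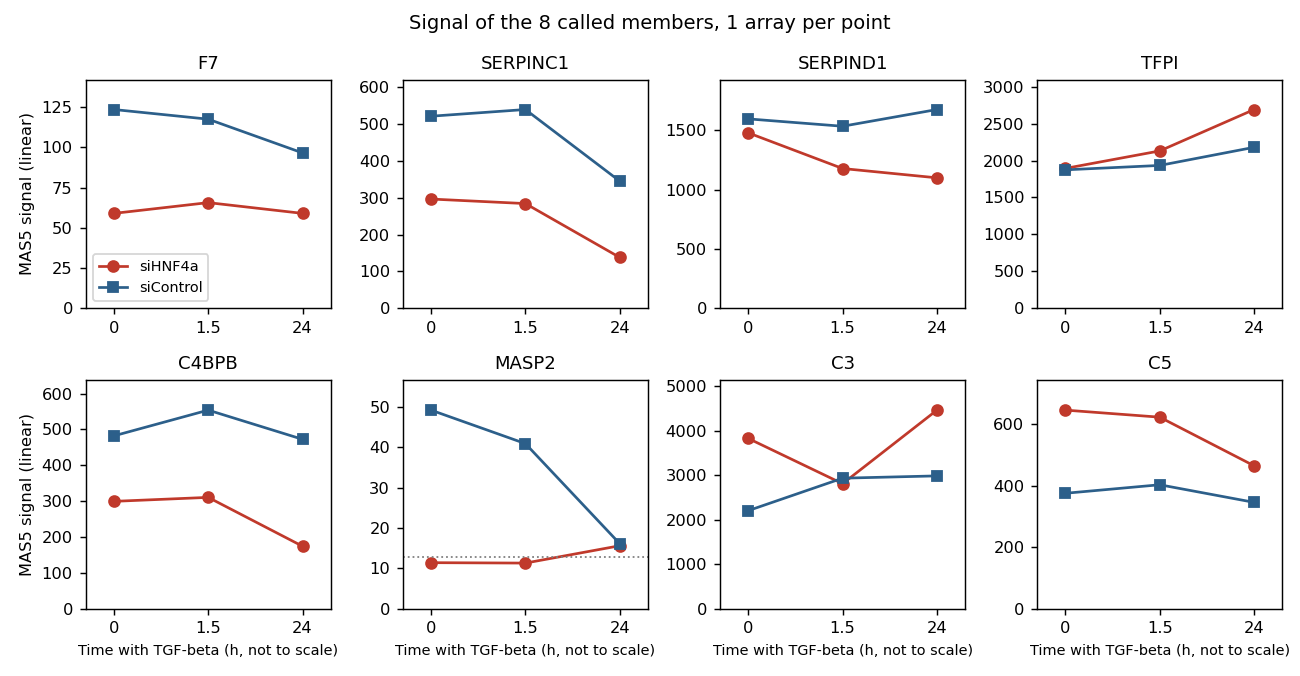
MAS5 signal (linear axis from 0) of the 8 members called in any contrast at 0, 1.5 and 24 h with TGF-beta, with 1 array per point, siHNF4a in red circles, siControl in blue squares and the floor of 12.9 dotted for MASP2. F7, SERPINC1, SERPIND1, C4BPB and MASP2 have all siHNF4a points below all siControl points, C5 has them above, and C3 crosses at 1.5 h.

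Complement members were called in both directions. C4BPB and MASP2 fell in siHNF4a cells, C3 and C5 rose, and 10 of 14 were not called. Each direction made up 14.3% of the tested members, against 4.16% of all genes that fell and 3.9% that rose. The median difference was -0.23, as for coagulation, and 11 of 14 members had a negative sign, against 6685 of all 11921 genes. C3 and C5 are the central components that every route cleaves, C4BPB is a subunit of the binding protein that restrains the classical and lectin routes, and MASP2 is the protease that starts the lectin route. Without the siControl 0 h array 2 complement members were called in place of 4, C4BPB at -1.14 and C5 at 0.53.

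Among the regulators C4BPB read 299.5, 311 and 174 in siHNF4a cells at 0, 1.5 and 24 h, against 482, 554 and 473 in siControl cells. The groups did not overlap, and the siHNF4a signal was 0.621, 0.561 and 0.369 of siControl at the 3 times. C4BPB fell by 0.99 (SE 0.15, adjusted p = 0.00083). C4BPA, the gene of the other subunit, adjoins C4BPB on chromosome 1 with 0 protein-coding genes between them. It read 245, 255 and 249.6 in siHNF4a cells, against 274, 289 and 267 in siControl cells. The siHNF4a signals were again all lower, but by little, and the difference of -0.15 ± 0.13 was not called (adjusted p = 0.59). CFI, the protease that inactivates C3b and C4b, differed by -0.20 ± 0.12 (adjusted p = 0.37), with overlapping groups.

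C5, the precursor of the anaphylatoxin C5a and of the pore, read 646, 623 and 465 in siHNF4a cells, against 376, 403 and 346 in siControl cells. It was the only tested complement member whose 3 siHNF4a signals all exceeded the highest siControl signal. At 0, 1.5 and 24 h the ratio to siControl was 1.72, 1.55 and 1.34. C5 rose by 0.61 ± 0.12 (adjusted p = 0.006). C3 read 3828, 2809.6 and 4464 in siHNF4a cells, against 2204, 2933 and 2985 in siControl cells. Its siHNF4a to siControl ratio took values of 1.74, 0.958 and 1.5 at 0, 1.5 and 24 h, so that the groups overlapped. C3 rose by 0.44 ± 0.12 (adjusted p = 0.044). Without the siControl 0 h array the difference was 0.26 (adjusted p = 0.20), and without the 24 h arrays it was 0.37 (adjusted p = 0.39). CFB, the protease of the alternative route, read 241, 201 and 224 in siHNF4a cells, against 206, 245 and 318 in siControl cells. Its groups overlapped, with a difference of -0.19 ± 0.16 (adjusted p = 0.55).

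MASP2 was close to the floor. It read 11.4, 11.3 and 15.6 in siHNF4a cells, against 49.2, 40.9 and 16.1 in siControl cells. The separation came from 0 and 1.5 h, where both siHNF4a signals were set to the floor, and the 24 h signals differed little. With these floored values MASP2 fell by 1.21 (SE 0.35, adjusted p = 0.044). Without the siControl 0 h array the difference was -0.86 (adjusted p = 0.20), and without the 1.5 h arrays it was -0.99 (adjusted p = 0.25). Its probe set is of a class (_x_at) whose probes can match other transcripts, and with probe sets of that kind left out the value was -0.05 (adjusted p = 0.95).

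Lectin and classical starters other than MASP2 were not called. MBL2, the mannose-binding lectin, read 146, 139.9 and 174 in siHNF4a cells, against 105, 101 and 140.4 in siControl cells, a difference of 0.42 ± 0.16 (adjusted p = 0.15). At each time the siHNF4a signal was the higher, and the groups overlapped only between 139.9 and 140.4. MASP1, another protease bound to MBL2, read 16.5, 12.7 and 19.5 in siHNF4a cells, against 18.7, 13 and 25.4 in siControl cells. These signals were close to the floor, and MASP1 differed by -0.19 ± 0.28 (adjusted p = 0.77). C1R and C1S, the proteases of the C1 complex, adjoin on chromosome 12 and differed by -0.53 ± 0.28 (adjusted p = 0.29) and -0.26 ± 0.16 (adjusted p = 0.37). C2, the protease of the classical C3 convertase, read 167, 145 and 137 in siHNF4a cells, against 173, 206 and 175 in siControl cells. Its siHNF4a signals were all lower, with a difference of -0.31 ± 0.16 (adjusted p = 0.30). The other C2 probe set read 60.4, 40.8 and 36 in siHNF4a cells, against 65.4, 66.6 and 80.7 in siControl cells.

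Terminal components were dim. C8A and C8B, chains of the pore that adjoin on chromosome 1, were the members of this kind bright enough to test. C8A read 23.2, 17.5 and 15.2 in siHNF4a cells, against 27.8, 24 and 29.4 in siControl cells, and C8B read 34.8, 23.8 and 32.5 in siHNF4a cells, against 38.8, 36.6 and 58 in siControl cells. Both had all siHNF4a signals below all siControl signals, with differences of -0.56 ± 0.28 (adjusted p = 0.26) and -0.54 ± 0.25 (adjusted p = 0.22). C6, C8G and C9 were not tested. C6 read 10.9, 0.5 and 6 in siHNF4a cells, against 13.3, 10 and 10.5 in siControl cells, and C8G read 5.8, 9.2 and 1.3 in siHNF4a cells, against 8.7, 16.7 and 2.1 in siControl cells. C9 lay far below the floor, at 0.5, 0.6 and 0.4 in siHNF4a cells, against 3.6, 0.7 and 0.3 in siControl cells. With C2, C4BPA, C4BPB and MASP2, the C8 genes made 6 of 14 tested complement members whose siHNF4a signals all lay below siControl, an order found in 10.3% of all genes.

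At single times, without a test, 3 coagulation and 3 complement members reached a 2-fold difference in any of the 3 siRNA pairs, against a background of 10.4% of all genes. At 0 h they were F7 and MASP2, lower in siHNF4a cells, and SERPING1, higher. At 1.5 h they were C1R and MASP2, lower, and at 24 h SERPINC1 and C4BPB, lower. The median siHNF4a minus siControl difference of the coagulation members was -0.02, -0.13 and -0.42 at 0, 1.5 and 24 h, and that of the complement members was -0.16, -0.37 and -0.27. The medians of all genes tested were -0.01, -0.05 and -0.03.

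With limma's variance prior taken without its intensity trend, 0 members of either system were called for the siRNA or for TGF-beta at 24 h, while the differences themselves are the same numbers in both fits. The main test with the trend had 8 coagulation and 6 complement members at an unadjusted p below 0.05 for the siRNA, as had 2552 of all 11921 genes.

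TGF-beta at 24 h, compared with 0 h over both siRNAs, moved few members. SERPINC1 fell and TFPI rose among the 16 coagulation members, and 14 were not called. None of the 14 complement members was called by limma, where 2 had an unadjusted p below 0.05, as had 3313 of all 11921 genes. Each direction made up 6.25% of the tested coagulation members, near the background of 7.82% of all genes that fell and 7.22% that rose. The median difference was -0.00052 for coagulation and 0.14 for complement, against -0.03 over all genes. Of the hepatocyte markers TTR fell at 24 h by 0.54 (SE 0.14, adjusted p = 0.018) and SERPINA1 rose by 0.34 ± 0.09 (adjusted p = 0.018), and their relation to the members' values was not tested. SERPINC1 inhibits thrombin and F10, TFPI inhibits the tissue factor route, and they went in opposite directions. With shares near the background, these calls are not a result about inhibitors.

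**Figure D3:**
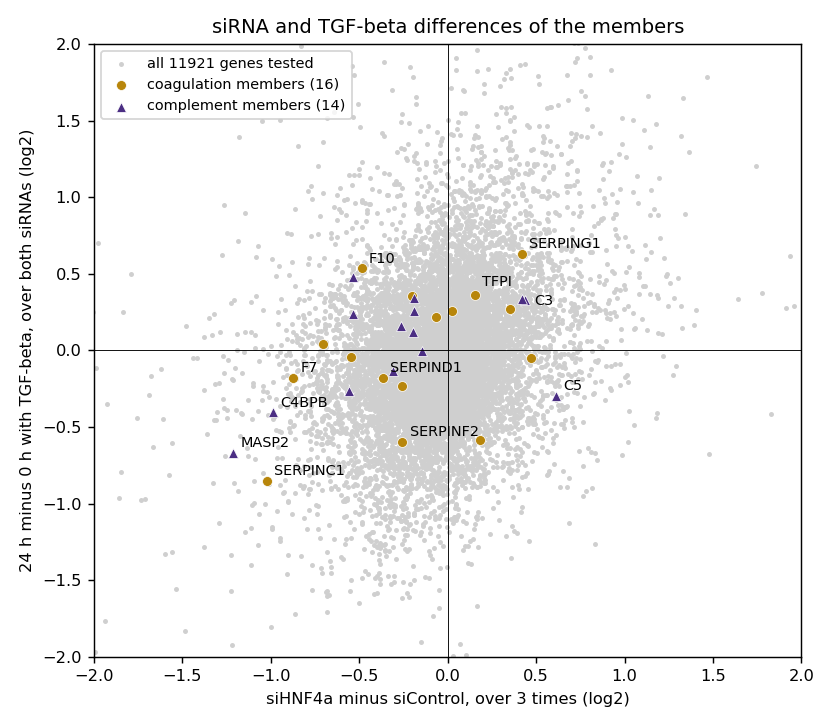
The siRNA difference over 3 times (x axis, log2, siHNF4a minus siControl) against the TGF-beta difference over both siRNAs (y axis, log2, 24 h minus 0 h), with the 11921 genes tested in grey, the 16 coagulation members as circles and the 14 complement members as triangles, and 44 genes beyond the plotted range of 2 left out. SERPINC1, at -1.02 and -0.85, is the member called on both axes, and C5, at 0.61 and -0.30, lies to the right.

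The 24 h minus 0 h difference of SERPINC1 was -1.11 in siHNF4a cells and -0.60 in siControl cells. The 24 h signal was the lowest of its arm in each, 138 with siHNF4a and 345 with siControl. Over both arms the difference was -0.85 ± 0.17 (adjusted p = 0.0036). TFPI read 1893, 2130.2 and 2691 in siHNF4a cells at 0, 1.5 and 24 h, against 1874, 1933 and 2179 in siControl cells. The 24 h signal was the highest of both arms, and the difference was 0.51 in siHNF4a cells and 0.22 in siControl cells. TFPI rose by 0.36 ± 0.11 (adjusted p = 0.04), and with the 1.5 h arrays in place of the 0 h arrays the value was 0.25 (adjusted p = 0.16). Without the siControl 0 h array both calls remained, at -1.01 for SERPINC1 and 0.47 for TFPI.

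**Figure D4:**
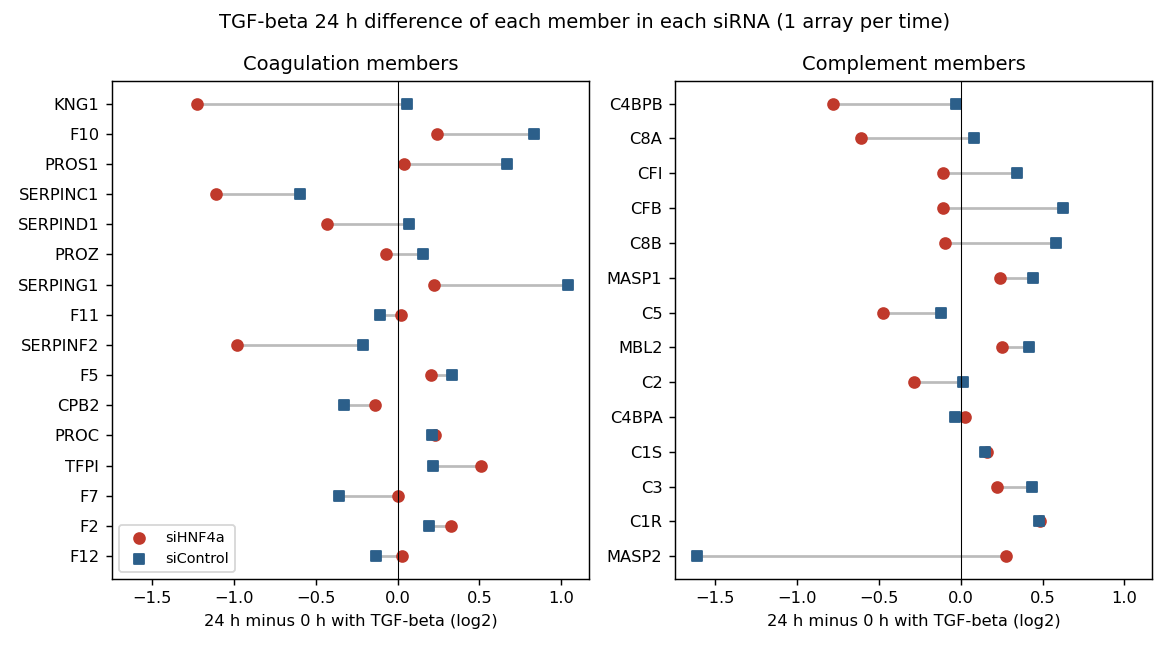
The log2 difference of 24 h minus 0 h with TGF-beta for each tested member, with siHNF4a as red circles and siControl as blue squares, 1 array per time and siRNA, and a grey line joining the arms. The arms lie apart for MASP2 (0.27 in siHNF4a cells, -1.61 in siControl cells) and close together for PROC and C1S.

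Members that missed the call at 24 h had values on both sides of 0. F10 had a difference of 0.54 ± 0.22 (adjusted p = 0.13) and PROS1 of 0.36 ± 0.15 (adjusted p = 0.14). SERPINF2 differed by -0.60 ± 0.23 (adjusted p = 0.10), with -0.98 in siHNF4a cells and -0.21 in siControl cells. Without the siControl 0 h array its value was -1.04, with the siHNF4a array alone at 0 h and 1 residual degree of freedom. SERPING1 had 0.63 ± 0.36 (adjusted p = 0.28), the highest value of the tested members. In complement C5 had -0.30 ± 0.15 (adjusted p = 0.21) and C4BPB had -0.41 ± 0.18 (adjusted p = 0.16). C3 had 0.33 ± 0.15 (adjusted p = 0.18), and in a fit without the 1.5 h arrays it was called at the same difference (adjusted p = 0.036).

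Single arrays gave 3 coagulation members and 1 complement member with a 2-fold difference in any of the 4 TGF-beta pairs, against a background of 14% of all genes. In siHNF4a cells KNG1 and SERPINC1 were lower at 24 h than at 0 h. KNG1 read 64.5, 46.6 and 27.6 in siHNF4a cells at 0, 1.5 and 24 h, against 35.2, 44.3 and 36.6 in siControl cells, and its 24 h difference over both arms was -0.58 ± 0.33 (adjusted p = 0.27). The other KNG1 probe set above the floor read 27.7 at 0 h and 20.5 at 24 h in siHNF4a cells, short of 2-fold. Its 24 h difference over both arms was -0.16. In siControl cells, by the 0 h array that stood apart, SERPING1 was higher and MASP2 lower at 24 h than at 0 h. SERPING1 read 26.1, 15.1 and 30.5 in siHNF4a cells, against 10.3, 14.7 and 26.5 in siControl cells. No member reached 2-fold at 1.5 h in either arm.

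At 1.5 h limma called 0 members of either system, and 12 of all genes, a background of 0.101%. F12 had the only unadjusted p below 0.05 among the members, where 364 of all genes had one. It read 44.8, 23.3 and 45.6 in siHNF4a cells at 0, 1.5 and 24 h, against 30.4, 21.1 and 27.8 in siControl cells, with the 1.5 h signal the lowest in both arms. Its 1.5 h difference was -0.73 ± 0.31 (unadjusted p = 0.031, adjusted p = 1). F10 differed by 0.46 ± 0.22 at 1.5 h, with a higher signal at 1.5 h than at 0 h in both arms.

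Whether the siRNA difference at 24 h departed from that at 0 and 1.5 h was tested with a further term, and 0 of the 11921 genes passed, a background of 0%. At an unadjusted p below 0.05 there were 543 genes, 3 members among them. C4BPB had -0.68 ± 0.28 (unadjusted p = 0.036), CFI had -0.58 ± 0.22 (unadjusted p = 0.024) and MASP2 had 1.75 ± 0.53 (unadjusted p = 0.0081, adjusted p = 0.99). CFI read 1404, 1768 and 1303 in siHNF4a cells, against 1538, 1620.3 and 1954 in siControl cells. The 24 h pair was the one in which its signals lay furthest apart. SERPINC1, with -0.45 ± 0.28 (unadjusted p = 0.14), PROS1, with -0.52 ± 0.24 (unadjusted p = 0.061), and F10, with -0.60 ± 0.36 (unadjusted p = 0.13), also had negative values. The sign was negative for 10 of 16 coagulation and 9 of 14 complement members, against 6040 of all 11921 genes. The medians were -0.29 and -0.22, against -0.01 over all genes. All members were read from the same arrays, so their signs are not independent. This fit had 1 residual degree of freedom, so a difference between the arms is not shown for any member.

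Of the 37 members 14 had several probe sets. The other SERPINC1 probe set read 178, 168 and 90.3 in siHNF4a cells, against 313, 316 and 244 in siControl cells, with the same order as the one used and differences of -1.05 for the siRNA and -0.67 for 24 h. TFPI probe sets differed among themselves. The brightest of the others at 24 h read 1558, 1864 and 2711 in siHNF4a cells, against 1344, 1414 and 1783 in siControl cells, with an siRNA difference of 0.41 and a 24 h difference of 0.60, and a further one had -0.04 at 24 h. The remaining TFPI probe sets had 24 h differences of 0.51 and -0.21 and siRNA differences of 0.22 and -0.56. The negative values came from a dim probe set with signals of 11.5 to 34.5. For MASP2 the other probe sets gave siRNA differences of -0.08 and -0.05, against -1.21 for the one used, so its call rests on that probe set.

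**Figure D5:**
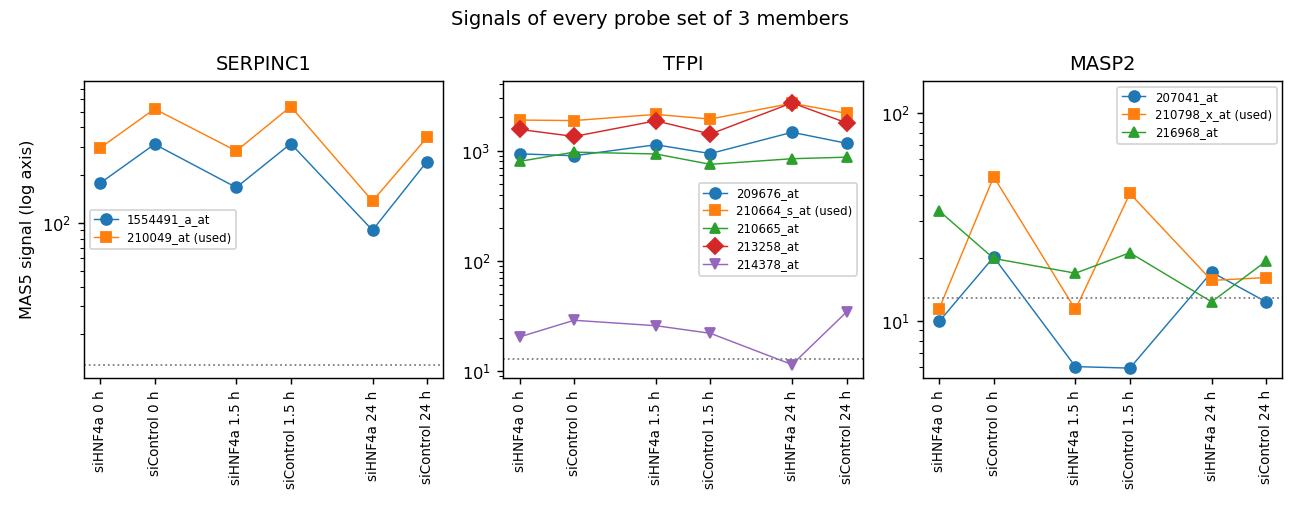
MAS5 signal (log axis) of every probe set of SERPINC1, TFPI and MASP2 on the 6 arrays, with siHNF4a left of siControl at each time and the floor of 12.9 dotted. Both SERPINC1 probe sets zigzag alike, the TFPI probe sets differ at 24 h, and of the MASP2 probe sets the one used has 49.2 and 40.9 in siControl cells at 0 and 1.5 h.

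Other genes of the pathways were counted from lists of 25 coagulation and 31 complement genes, of which 23 and 24 were on the array and 19 and 11 were tested. For the siRNA, 1 of the 19 coagulation genes fell and 2 rose, against 4.16% of all genes that fell and 3.9% that rose, so the count that fell was near the background. SERPINA10, the serpin that works with PROZ against F10, read 107, 109 and 73.3 in siHNF4a cells, against 198, 159 and 136 in siControl cells, and fell by 0.77 (SE 0.17, adjusted p = 0.011). VKORC1, which recycles the vitamin K needed by F2, F7, F9, F10, PROC, PROS1 and PROZ, read 837, 826 and 902 in siHNF4a cells, against 481, 473 and 573 in siControl cells. The VKORC1 groups did not overlap, and it rose by 0.75 ± 0.11 (adjusted p = 0.00053). F2R, a thrombin receptor, read 110.3, 170.5 and 273.7 in siHNF4a cells, against 102.1, 63 and 171.6 in siControl cells, from an _x_at probe set. It rose by 0.74 ± 0.22 (adjusted p = 0.048), but the groups overlapped, and the differences were 0.11, 1.44 and 0.67 at 0, 1.5 and 24 h.

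In the complement list 3 of 11 genes fell and 1 rose with the siRNA, against 4.16% and 3.9% of all genes. CD59, which blocks the pore on a cell's own membrane, read 484, 537 and 927 in siHNF4a cells, against 1223, 1110.2 and 1646 in siControl cells. All siHNF4a signals of CD59 were lower, and it fell by 1.07 (SE 0.11, adjusted p = 3.9e-05). CPN2, a subunit of the carboxypeptidase that inactivates C3a and C5a, fell by 1.12 (SE 0.23, adjusted p = 0.0077), and C1RL fell by 0.61 (SE 0.16, adjusted p = 0.026). CLU, clusterin, which binds the forming pore, read 653, 604 and 527 in siHNF4a cells, against 397, 454 and 266 in siControl cells, and rose by 0.71 ± 0.13 (adjusted p = 0.0038).

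At 24 h with TGF-beta 9 of the 19 other coagulation genes rose (47.4%) and 0 fell, with a median of 0.34, where the background for a rise was the 7.22% given for all genes. The list was chosen with earlier results of these data known, so this share is a description and not a test of the pathway. SERPINA1, 1 of the 9, is also among the hepatocyte markers. PLAU, the urokinase plasminogen activator, rose by 1.77 ± 0.33 (adjusted p = 0.0022), and PLAT, the tissue plasminogen activator, rose by 1.26 ± 0.33 (adjusted p = 0.018). The protease inhibitor SERPINE2 read 1003, 1165 and 3044 in siHNF4a cells at 0, 1.5 and 24 h, against 1105, 1093 and 2553 in siControl cells, and rose by 1.41 ± 0.12 (adjusted p = 5.8e-06). TFPI2 rose by 1.52 ± 0.45 (adjusted p = 0.034) with 3 of 6 arrays above the floor. PECAM1, the endothelial marker above the floor, read 65.7, 57.5 and 98 in siHNF4a cells, against 47, 81.8 and 127 in siControl cells, and rose at 24 h by 1.01 ± 0.27 (adjusted p = 0.022). CDH5 and TEK were at or below the floor on all arrays. The labels name HepG2 as the only cells, and what lies behind the PECAM1 values was not tested. Of the other complement genes CD59 rose by 0.68 ± 0.14 (adjusted p = 0.0041) and CPN2 fell by 2.19 (SE 0.29, adjusted p = 0.00014), and 9 of 11 were not called. CPN2 read 145, 99.7 and 19.6 in siHNF4a cells, against 186, 241 and 65.7 in siControl cells, with the 24 h signal the lowest in both arms.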

How the data were processed

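Biotin-labelled cRNA from total RNA was measured on 6 Affymetrix arrays, 1 per siRNA and time, per the labels' protocols. Linear intensity values were deposited, which the submitters' processing notes credit to GCOS and MAS5 (version 5.0). Each array had a 2% trimmed mean of 100.

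The 37 members and the other gene lists were chosen with earlier results of these data known, so counts over them are descriptions. All 54675 probe sets were read, 62 of them controls. The platform annotation gave 1 symbol for 41091 probe sets that were not controls, several for 1801 and none for 11777, most controls among the last, and probe sets with several or none were named by no gene. All 37 members were matched by Entrez identifier with an unchanged symbol. Each gene was represented by its brightest probe set, by the mean of the arrays. The siRNA labels were not checked against the HNF4A signal, which is not reported here, nor is a further promoter motif.

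Signals were used as deposited, floored at 12.9, log2-transformed and fitted for the 11921 genes with a mean above the floor with limma 3.58.1 in R 4.3.3 (lmFit, eBayes with an intensity trend, Benjamini-Hochberg over all genes). Terms were siRNA and time, with 2 residual and 12.6 prior degrees of freedom. A further fit added siHNF4a at 24 h, with 1 residual and 8.56 prior. The fits were also run on simulated normal data with known changes, the same noise for all genes and no floor. That run did not test the intensity trend or the filter on dim genes. Pearson correlations between arrays were 0.944 to 0.986. Every called member was to be given in full, and of the other pathway lists up to 4 called genes per contrast. Alternatives were quantile and median scaling, a floor at the 40th, 60th or 75th percentile, the floor used as a pseudocount, averaging all probe sets of a gene, no _x_at or _s_at probe sets, no filter on dim genes, no intensity trend, omission of the arrays of each time or of the siControl 0 h array, 1.5 h as the starting time for 24 h, and promoters without the bases after the start. Tables and figures used Python 3.11.15, numpy 2.4.6, pandas 2.3.3 and matplotlib 3.10.9.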

Additional observations from a re-analysis of the deposited data

How the results depend on the processing

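No paired analysis was possible because each group had 1 array and the labels give no replicate numbers, while time as a term of the fit already sets the arrays of each time against each other. Of 1386 member values recomputed under the alternatives, 43 took the other sign, and 0 of these were of a called difference. No called member kept its call under every alternative, and every call was lost with no intensity trend or no filter on dim genes and, except for SERPINC1 with the siRNA, with probe sets averaged. For F7 the average took in a probe set below the floor on all arrays, which by construction made the difference smaller in size. The cause of the lost calls was not tested. Over the alternatives the siRNA difference lay between -1.13 and -0.87 for SERPINC1 (call kept in 12 of 14), -0.95 and -0.44 for F7 (6 of 13), -0.49 and -0.25 for SERPIND1 (7 of 14), -1.14 and -0.76 for C4BPB (10 of 13), -1.80 and -0.05 for MASP2 (2 of 13), 0.53 and 0.71 for C5 (11 of 14) and 0.26 and 0.69 for C3 (6 of 14). The 24 h difference lay between -1.01 and -0.76 for SERPINC1 (10 of 13) and between 0.25 and 0.60 for TFPI (7 of 13). For the siRNA, leaving out the 0 h pair or the siControl 0 h array gave the same differences. The counts of kept calls include both, and they are not separate checks.

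For the siRNA, 3 coagulation members became 1 with the mean of probe sets, 1 without the 24 h pair, and 0 with no filter or no trend. The 4 complement members became 2 with quantile normalization, a floor at the 40th percentile, no _x_at or _s_at probe sets, no 0 h pair or no siControl 0 h array, and 0 with the mean of probe sets, no filter or no trend. All called genes, 961, became 104 with the mean of probe sets, 45 without the trend, 578 with the 1.5 h pair left out, 242 with the 24 h pair left out and 0 with no filter. Median scaling turned 496 genes that fell and 465 that rose into 385 and 558. For TGF-beta at 24 h the 2 coagulation members became 1 with quantile normalization, median scaling or 1.5 h as the starting time, and 0 with the mean of probe sets, no filter or no trend. The 0 complement members became 1 without the 1.5 h pair. All called genes, 1793, became 695 with the mean of probe sets, 457 without the trend and 1 with no filter. At 1.5 h the 12 genes became 7 without _x_at and _s_at probe sets, 26 without the siControl 0 h array, and 0 with the mean of probe sets, no filter or no trend. The 24 h term, with 0 genes called, gave 4 with the floor at the 40th percentile, 24 with the pseudocount and 639 with no filter, and could not be fitted with pairs of arrays or the siControl 0 h array left out. Of members past 2-fold, 3 coagulation and 3 complement members for the siRNA became 1 and 1 with a floor at the 75th percentile. For TGF-beta 3 coagulation members became 1 and 1 complement member became 0 with that floor, and the complement count was 0 with the mean of probe sets. CAAAGTCCA was found for 1 member in place of 2 in the 250 bases before the start. Calls gained for the siRNA were F5 at 0.40 with median scaling, CPB2 at -0.30 with quantile normalization and TFPI at 0.41 without _x_at and _s_at probe sets. At 24 h they were C3 as given above, and SERPINF2 without the siControl 0 h array, where the siHNF4a array alone stood for 0 h. Signals near the floor limit MASP2, SERPING1, MASP1 and the C8 genes.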
